A study of Mus musculus with 9 samples.

Results

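Interferon response genes are described here in mouse naive CD4+ T cells stimulated for 24 h, across cells with a Fosl2 transgene, cells labelled as a Fosl2 knockout and control cells. The set was chosen by name, with earlier results of these data known: 44 genes of the interferon system. Their symbols were matched in the deposited table of gene expression per library, out of 23849 entries. All 44 were found. Of them 28 had a mean of at least 1 FPKM (fragments per kilobase of transcript and per M mapped fragments, a level corrected for gene length and depth) over the 9 libraries, and these were tested among 10340 genes above that level. The other 16 stood below it and are described by their levels. Xaf1 (mean 1.10 FPKM) and Oas3 (1.14 FPKM) lay just inside that limit, and Irf7 (0.891 FPKM) and Usp18 (0.873 FPKM) just outside.

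RNA sequencing of polyadenylated RNA was done on sorted CD4+ CD62L-high CD44-low T cells of the mouse after stimulation with antibodies to CD3 and CD28, which engage the T cell receptor and its costimulatory receptor. There were 3 groups of 3 libraries. Control cells were wild type (wt) and, as far as the labels say, carried neither a transgene, a floxed allele nor a Cre. Fosl2 Tg cells carried a Fosl2 transgene whose promoter the labels do not name. The third group, labelled Fosl2 Ko, had the genotype Fosl2fl/fl CD4-cre+, in which a Cre driven by Cd4 regulatory sequences acts on a floxed Fosl2. That Cre is known to be active from the thymocyte stage that bears both CD4 and CD8, so it acts before the naive T cell forms and is not restricted to CD4+ cells. The labels give no strain or age, and nothing in them ties the 3 libraries of a group to different mice. The p-values therefore reflect only how much these libraries vary, which may be technical. Fosl2 encodes a subunit of AP-1, a family of transcription factors that T cells induce when they are activated.

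Interferons are secreted antiviral cytokines. Type I interferons bind the receptor chains Ifnar1 and Ifnar2, and interferon gamma binds Ifngr1 and Ifngr2. Both receptors act through Janus kinases and STAT proteins, the type I receptor mainly through a complex holding Stat2 and Irf9 that binds the interferon-stimulated response element (ISRE), and the interferon gamma receptor mainly through the gamma-activated site (GAS). The induced genes encode sensors of viral RNA and DNA, enzymes that degrade viral RNA or halt its translation, membrane restriction factors and GTPases that attack vacuoles holding microbes. In T cells type I interferon also shapes activation and proliferation.

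Fosl2 itself went against the Ko label. Its level was 7.77, 7.44 and 6.15 FPKM in Control, 30.9, 19.2 and 24.5 in Fosl2 Tg, and 19.2, 17.8 and 17.1 in the libraries labelled Fosl2 Ko. Both other groups lay above every Control library, by 1.65 ± 0.15 for Fosl2 Tg (difference of log2(FPKM + 1) ± SE, limma adjusted p = 0.000749) and by 1.23 ± 0.15 for the group labelled Fosl2 Ko (limma adjusted p = 0.00404). Between the genotypes the Fosl2 difference of 0.42 ± 0.15 did not pass (limma adjusted p = 0.0594). A gene-level FPKM does not show which exons were transcribed. Directions given below for that group therefore belong to libraries with a higher Fosl2 level than Control. Estimated depth was 32.0 to 57.5 M fragments per library. Library 1 of Fosl2 Tg stood apart, at -49.4 on the leading principal component of all tested genes (24% of the variance), against -20 to 26.6 for the other libraries. All 6 CD4 T cell markers found were above 1 FPKM, with the kinase gene Lck reaching 322. Their summed level was 1100 to 1120 FPKM in Control, 1260 to 1340 in Fosl2 Tg and 1030 to 1050 in those labelled Fosl2 Ko, with 4 of the 6 higher in Fosl2 Tg than in Control, and the part of these shifts in the results was not tested. Markers of B cells (highest, Cd79b at 1.08 FPKM), myeloid cells (Itgam at 1.06), conventional dendritic cells (Zbtb46 at 0.918) and NK cells (Tyrobp at 0.161) were low in every library, and platelet and red blood cell markers reached 0.540 and 0.0946 FPKM. The summed CD8 markers were 11.9 to 12.8 FPKM in Control, 10.7 to 12.7 in Fosl2 Tg and only 6.12 to 7.49 where the label was Fosl2 Ko. In bulk RNA, fewer cells of a type and less RNA per cell cannot be told apart.

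Most of the classical antiviral genes were expressed at a low level. In Control the mean levels ran from 0.0207 FPKM for Rsad2 (viperin, which makes a chain-terminating nucleotide) to 72.7 FPKM for Samhd1 (an enzyme that breaks down the deoxynucleotides that viruses need). Of the 44 genes, 10 had a Control mean above 13.9 FPKM, the median of the tested genes: Samhd1, Bst2, Igtp, Irf3, Gbp2, Ifi35, Irf2, Irf1, Adar and Ifngr1. All 4 receptor chains and all 5 GBP and IRG GTPases were above 1 FPKM over the 9 libraries, as were 5 of 6 transcription factors and 4 of 5 sensors. By contrast, 4 of 5 oligoadenylate synthetase family members, 2 of 3 IFIT genes, both Mx GTPases and both genes of the ISG15 system were below 1 FPKM. Of the 43 neighbouring pairs in the order of Control means, 30 had overlapping ranges over the 3 Control libraries, so much of the order is not resolved. Samhd1, Igtp, Irf3 and Gbp2 were among the genes whose Control range did not overlap that of the next gene down.

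**Figure D1:**
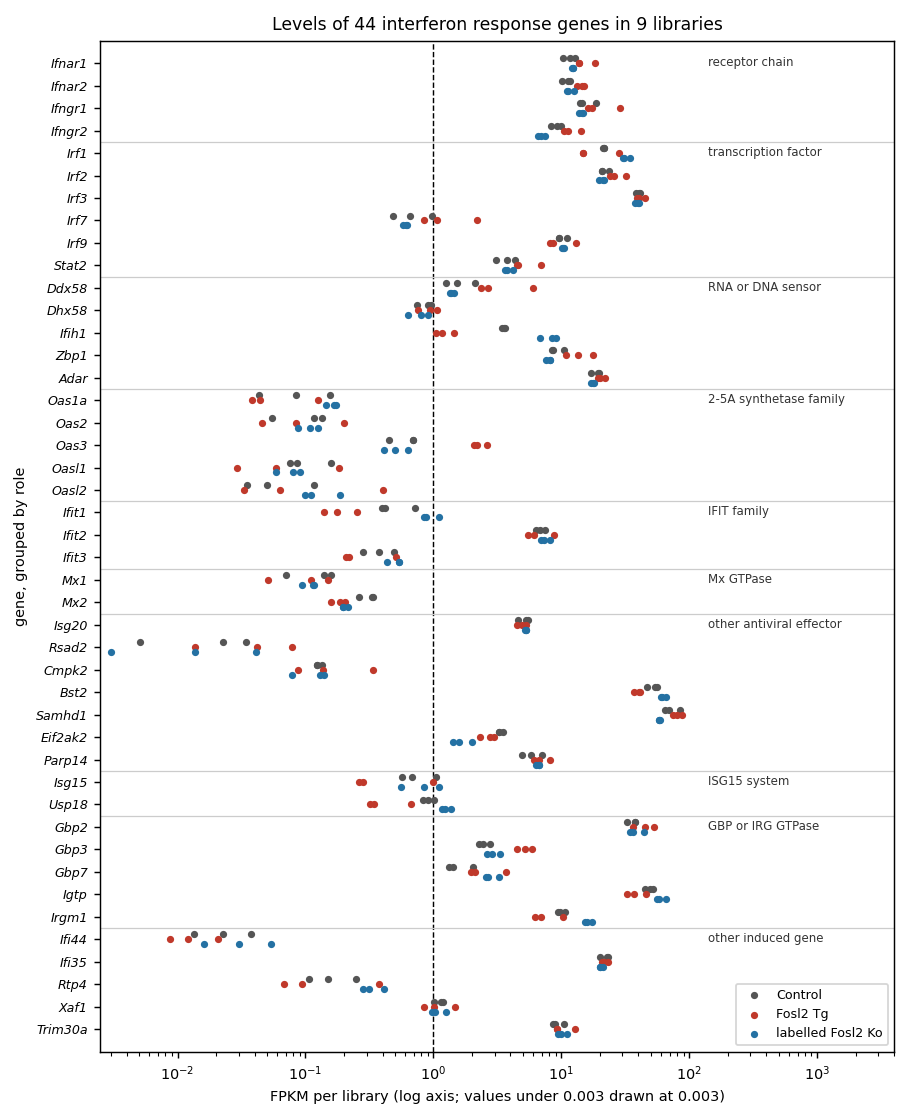
Level of each of the 44 genes in each of the 9 libraries (points; horizontal log axis, FPKM; the dashed line marks 1 FPKM), grouped by role on the vertical axis. Control is grey, Fosl2 Tg red and labelled Fosl2 Ko blue; the 28 genes above a mean of 1 FPKM span receptors to GTPases, while the Mx and ISG15 genes and most oligoadenylate synthetases lie below it.

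Library 1 of Fosl2 Tg was also the library in which interferon response genes were highest. It held the highest of the 9 values for 17 of the 28 tested genes (60.7%), against 29.4% of all tested genes. The median deviation of the 28 genes from their mean over the 9 libraries was 0.29 on the log2(FPKM + 1) scale in that library, against -0.04 over all tested genes, while the other 8 libraries lay between -0.13 and 0.06. It was also highest for 7 of the 16 genes below 1 FPKM (24.6% of all such genes). Counts of called genes of the set in comparisons with Fosl2 Tg are therefore given with and without it. So are the differences of many single genes. Medians and counts of groups that do not overlap are given with it only.

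**Figure D2:**
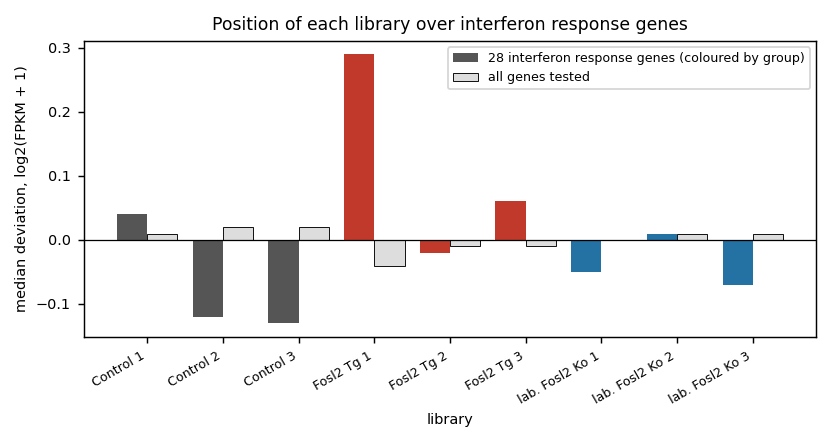
Median deviation of log2(FPKM + 1) from the gene mean over the 9 libraries, for the 28 tested interferon response genes (coloured bars) and for all 10340 tested genes (light bars), per library. Fosl2 Tg library 1 stands at 0.29, and the other libraries lie between -0.13 and 0.06.

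Fosl2 Tg was first compared with Control. The 3 receptor chain genes Ifnar1, Ifnar2 and Ifngr2, the nucleic acid sensor gene Zbp1, the synthetase gene Oas3 and the GTPase gene Gbp3 were higher. The RNA sensor gene Ifih1 and the restriction factor gene Bst2 were lower. In all, 8 of the 28 tested genes (28.6%) passed limma's threshold (adjusted p at or under 0.05), against 23.6% of all tested genes. By direction, 6 were higher, against 8.53% of all tested genes, and 2 were lower, against 15.1%. Oas3 is counted among the 6, but it reached 1 FPKM only through Fosl2 Tg, so its call is not independent of that limit. The median difference was 0.14 over the 28 genes and -0.03 over all tested genes. The 3 libraries of both groups did not overlap for 12 of the 28 genes, against 45.2% of all tested genes: 9 higher (18.1%) and 3 lower (27.1%). With Fosl2 Tg library 1 left out the calls were 5 higher and 5 lower, against 7.58% and 12.5% of all tested genes (20.1% together). Without Control library 1, Control library 2 or Control library 3 the calls were 8 higher and 2 lower, 2 higher and 1 lower, and 3 higher and 2 lower. Of all tested genes 24.5%, 8.5% and 11.0% were called in these fits. The removal of Fosl2 Tg library 2 gave 8 higher and 2 lower, against 24.2% of all tested genes called. That of Fosl2 Tg library 3 gave 4 and 2, against 19.0%. That of any library labelled Fosl2 Ko, which enter only through the common estimate of spread, gave 3 and 2, against 14.5% to 16.0%.

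The same fit set the libraries labelled Fosl2 Ko against Control. Ifih1 and the GTPase gene Irgm1 were higher, and Eif2ak2, the kinase that stops translation on double-stranded RNA, was lower. These were 3 of 28 (10.7%), against 4.46% of all tested genes. By direction, 2 were higher (2.14% of all tested genes) and 1 was lower (2.32%). The median difference was 0.04 over the 28 genes and -0.01 over all tested genes. The groups did not overlap for 10 of the 28 genes, against 32.8% of all tested genes: 6 higher (13.8%) and 4 lower (19.0%). Leaving out Fosl2 Tg library 1, which enters here only through the common estimate of spread, gave 4 higher and 2 lower, against 4.81% and 7.12% of all tested genes (11.9% together). Of the other libraries, the removal of any except Fosl2 Tg library 2 left 1 higher and 1 lower, against 1.7% to 3.86% of all tested genes called.

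Fosl2 Tg and the libraries labelled Fosl2 Ko differed in more of these genes. Ifnar2, Ifngr2, Irf2, Ddx58, Zbp1, Oas3, Samhd1, Eif2ak2 and Gbp3 were higher in Fosl2 Tg, and Irf1, Ifih1, Bst2, Igtp and Irgm1 were lower. These were 14 of the 28 genes, against 38.1% of all tested genes. By direction, 9 were higher (17.4% of all tested genes) and 5 lower (20.7%). The 9 include Oas3, which was tested only because of its level in Fosl2 Tg. The median difference was 0.14 over the 28 genes and -0.03 over all tested genes. The groups did not overlap for 18 of the 28 genes, against 60.4% of all tested genes: 13 higher (26.9%) and 5 lower (33.4%). With Fosl2 Tg library 1 left out 9 were higher and 7 lower, against 15.8% and 17.8% of all tested genes (33.6% together). The 3 comparisons share libraries, so their values for a gene are not independent of each other.

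**Figure D3:**
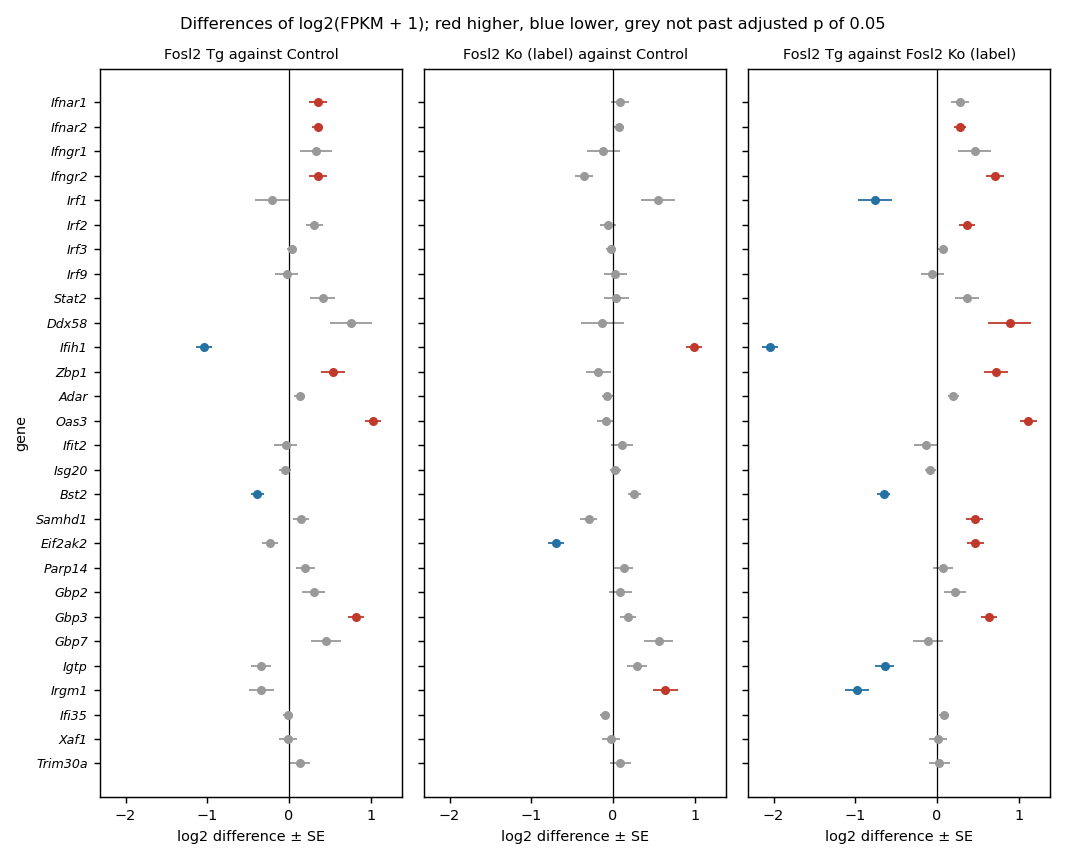
Difference of log2(FPKM + 1) with its SE from limma (horizontal axis) for the 28 tested genes in the 3 comparisons (panels). Red genes were higher and blue genes lower at an adjusted p at or under 0.05, and grey genes did not pass; Ifih1 is the gene lower in Fosl2 Tg and higher in the libraries labelled Fosl2 Ko.

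Among the receptor chains, those for type I interferon rose modestly in Fosl2 Tg. Ifnar1 (chromosome 16, 91485215 to 91510522), the chain with the larger part in signalling, had 12.7, 11.7 and 10.2 FPKM in Control, 18.2, 13.8 and 13.8 in Fosl2 Tg, and 12.4, 12.2 and 12.3 in the libraries labelled Fosl2 Ko. Ifnar2 (chromosome 16, 91372783 to 91405587), the chain that binds interferon most tightly, had 11.7, 11.2 and 10.1 FPKM in Control, 13.2, 15.0 and 14.6 in Fosl2 Tg, and 11.3, 12.5 and 11.0 in the libraries labelled Fosl2 Ko. For both genes every Fosl2 Tg library lay above every other library. Ifnar1 was higher than Control by 0.36 ± 0.11 (log2, SE, limma adjusted p = 0.0465) and Ifnar2 by 0.35 ± 0.07 (limma adjusted p = 0.0149). Against the libraries labelled Fosl2 Ko, Ifnar2 was higher by 0.28 ± 0.07 (limma adjusted p = 0.0209), while Ifnar1 did not pass (0.28 ± 0.11, limma adjusted p = 0.0761).

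The interferon gamma receptor followed in its Ifngr2 chain. Ifngr2 (chromosome 16, 91547094 to 91564007), the chain that recruits the kinase for signalling, had 9.84, 8.31 and 9.21 FPKM in Control, 14.3, 10.5 and 11.3 in Fosl2 Tg, and 6.56, 7.39 and 6.89 in the libraries labelled Fosl2 Ko. The 3 groups did not overlap, with Fosl2 Tg on top and the libraries labelled Fosl2 Ko at the bottom. Fosl2 Tg was higher than Control by 0.36 ± 0.11 (limma adjusted p = 0.0434) and than the libraries labelled Fosl2 Ko by 0.71 ± 0.11 on the log2 scale (limma adjusted p = 0.00199). The difference of the libraries labelled Fosl2 Ko from Control was -0.35 ± 0.11 and did not pass (limma adjusted p = 0.119). Ifngr1, the chain that binds the cytokine, had 18.8, 14.5 and 14.0 FPKM in Control, 28.7, 16.0 and 17.4 in Fosl2 Tg, and 13.7, 14.7 and 14.4 in the libraries labelled Fosl2 Ko. Only Fosl2 Tg library 1 of Ifngr1 stood above all Control libraries, and no comparison passed (0.33 ± 0.20 for Fosl2 Tg against Control, limma adjusted p = 0.224). Leaving out Fosl2 Tg library 2, it passed as higher than in those labelled Fosl2 Ko (0.61, limma adjusted p = 0.0499, and from 0.0499 to 0.206 over 19 settings). Ifnar2, Ifnar1 and Ifngr2 lie in that order within a short stretch of chromosome 16, and Ifngr1 lies on chromosome 10.

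These receptor calls were close to the threshold. Without Fosl2 Tg library 1 the difference from Control was 0.24 for Ifnar1 and 0.24 for Ifngr2, neither past the threshold, and 0.40 for Ifnar2, which passed. The Ifnar1 call was also lost without Control library 2 or 3 or any library labelled Fosl2 Ko, and over 19 alternative settings its limma adjusted p ran from 0.00767 to 0.143. The Ifngr2 call against Control was lost in the same removals and without Fosl2 Tg library 3, with a limma adjusted p of 0.00523 to 0.138 over 19 settings. The Ifnar2 call against Control did not survive the removal of Control library 2 (0.36, limma adjusted p = 0.0517, and from 0.00122 to 0.0517 over 19 settings). Its call against the libraries labelled Fosl2 Ko was lost without Fosl2 Tg library 2 or 3 or library 1 or 3 labelled Fosl2 Ko (0.24 to 0.26). Without Fosl2 Tg library 1, Ifngr2 in the libraries labelled Fosl2 Ko passed as lower than Control (-0.35, limma adjusted p = 0.0185, and from 0.0117 to 0.324 over 19 settings).

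Of the transcription factors, Irf1 separated the genotypes most, in the direction opposite to the receptors. Irf1 (chromosome 11, 53770014 to 53778374), which is induced by interferon gamma and activates many of its target genes, had 21.6, 21.0 and 21.6 FPKM in Control, 28.3, 14.7 and 14.7 in Fosl2 Tg, and 30.4, 34.3 and 30.7 in the libraries labelled Fosl2 Ko. Those labelled Fosl2 Ko lay above all others, and in Fosl2 Tg library 1 lay above Control while libraries 2 and 3 lay below it. Between the genotypes Irf1 was lower in Fosl2 Tg, with a log2 difference of -0.76 ± 0.21 (limma adjusted p = 0.0256). Neither group differed from Control past the threshold (-0.21 ± 0.21 for Fosl2 Tg, limma adjusted p = 0.459, and 0.55 ± 0.21 for the group labelled Fosl2 Ko, limma adjusted p = 0.217). Leaving out Fosl2 Tg library 1, all 3 differences passed, at -0.51 for Fosl2 Tg, 0.55 for the libraries labelled Fosl2 Ko and -1.06 between them. Their limma adjusted p then was 0.00172, 0.00102 and 2.27e-05, and over 19 settings it ran from 0.00172 to 0.842, from 0.00102 to 0.468 and from 1.68e-05 to 0.0839. The call between the genotypes was lost without Fosl2 Tg library 2 or 3 or without any library labelled Fosl2 Ko (-0.79 to -0.61).

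Irf2, which can oppose Irf1 at shared sites, had 23.6, 20.6 and 20.6 FPKM in Control, 31.9, 23.8 and 25.9 in Fosl2 Tg, and 21.4, 21.0 and 19.8 in the libraries labelled Fosl2 Ko. Fosl2 Tg lay above all other libraries, though its library 2 (23.8) was close to Control library 1 (23.6). Irf2 (chromosome 8, 46739745 to 46847458) was higher in Fosl2 Tg than in the libraries labelled Fosl2 Ko by 0.37 ± 0.10 on the log2 scale (limma adjusted p = 0.0244) and did not pass against Control (0.31 ± 0.10, limma adjusted p = 0.0582). The first call was lost without any library labelled Fosl2 Ko (0.34 to 0.39, with a limma adjusted p of 0.0547 to 0.0824), and over 19 settings its limma adjusted p ran from 0.00321 to 0.0824. Against Control it passed with Control library 1 (0.37) or Fosl2 Tg library 2 (0.40) removed, while leaving out Fosl2 Tg library 1 gave 0.19.

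The factors at the start and end of the type I pathway did not pass in any comparison. Irf3, which turns on interferon genes after viral sensing, had 38.4, 40.4 and 41.2 FPKM in Control, 44.9, 40.1 and 38.8 in Fosl2 Tg, and 40.7, 37.6 and 39.7 in the libraries labelled Fosl2 Ko. Irf9, the DNA-binding partner of Stat2, had 11.0, 9.49 and 9.53 FPKM in Control, 13.0, 8.66 and 8.21 in Fosl2 Tg, and 10.1, 10.4 and 10.2 in the libraries labelled Fosl2 Ko. The groups overlapped for both genes. Stat2 had 4.32, 3.79 and 3.06 FPKM in Control, 6.92, 4.56 and 4.51 in Fosl2 Tg, and 4.16, 3.76 and 3.60 in the libraries labelled Fosl2 Ko. Every Fosl2 Tg library of Stat2 lay above the others, with a difference from Control of 0.41 ± 0.15 (limma adjusted p = 0.0800). Irf7, the factor that amplifies type I interferon production, stood below 1 FPKM on average, with 0.971, 0.656 and 0.481 in Control, 2.18, 1.07 and 0.847 in Fosl2 Tg, and 0.614, 0.625 and 0.578 in the libraries labelled Fosl2 Ko. Its highest value was again that of Fosl2 Tg library 1. Without that library, Irf9 passed as lower in Fosl2 Tg than in the group labelled Fosl2 Ko (-0.25, limma adjusted p = 0.0223, and from 0.0105 to 0.935 over 19 settings).

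Of the sensors, Ifih1 had the largest difference of the 28 tested genes in all 3 comparisons on the log2(FPKM + 1) scale. Ifih1 (chromosome 2, 62595793 to 62646255) encodes MDA5, which recognizes long double-stranded RNA in the cytoplasm. Its level was 3.65, 3.59 and 3.43 FPKM in Control, 1.45, 1.16 and 1.05 in Fosl2 Tg, and 9.06, 8.44 and 6.85 in the libraries labelled Fosl2 Ko. The 3 groups were separate, with no library of a group near those of another. Fosl2 Tg differed from Control by a log2 value of -1.04 ± 0.10 (limma adjusted p = 0.000862), and the libraries labelled Fosl2 Ko lay above it by 0.99 ± 0.10 (limma adjusted p = 0.00146). Between the genotypes the difference was -2.04 ± 0.10 (limma adjusted p = 5.90e-06). Ifih1 kept its calls under every alternative tried, and without Fosl2 Tg library 1 its difference from Control was -1.11.

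Ddx58 moved the other way. Ddx58 (chromosome 4, 40203777 to 40239825) encodes RIG-I, the sensor of short RNA with a triphosphate end, a relative of MDA5 that signals through the same adaptor. It had 2.12, 1.52 and 1.26 FPKM in Control, 6.03, 2.36 and 2.69 in Fosl2 Tg, and 1.37, 1.35 and 1.44 in the libraries labelled Fosl2 Ko. Every Fosl2 Tg library lay above the others, with library 1 far above its own group. Ddx58 was higher than in the libraries labelled Fosl2 Ko by 0.89 ± 0.26 on the log2 scale (limma adjusted p = 0.0270) and did not pass against Control (0.76 ± 0.26, limma adjusted p = 0.0608). With Fosl2 Tg library 1 left out these differences were 0.56 and 0.43, of which the first passed. The first call was lost without any library labelled Fosl2 Ko (0.88 to 0.91), and over 18 settings its limma adjusted p ran from 0.00185 to 0.0770. Against Control it passed without Fosl2 Tg library 2 (0.97, limma adjusted p = 0.0366, and from 0.00979 to 0.174 over 18 settings).

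Zbp1 (chromosome 2, 173206612 to 173218922), a sensor of nucleic acids in the Z form that can trigger necroptosis, had 10.4, 8.46 and 8.67 FPKM in Control, 17.6, 10.9 and 13.5 in Fosl2 Tg, and 8.14, 7.57 and 8.10 in the libraries labelled Fosl2 Ko. The 3 groups did not overlap. Fosl2 Tg was higher than Control by 0.54 ± 0.15 (limma adjusted p = 0.0343) and than the libraries labelled Fosl2 Ko by 0.72 ± 0.15 on the log2 scale (limma adjusted p = 0.00760). Leaving out Fosl2 Tg library 1 gave 0.37 and 0.56, and both passed. The call against Control was lost when Control library 2 or 3, Fosl2 Tg library 3 or any library labelled Fosl2 Ko was left out (0.49 to 0.55), and over 19 settings its limma adjusted p ran from 0.00676 to 0.113. Adar, which edits adenosine in double-stranded RNA, ranged from 16.9 to 22.0 FPKM over the 9 libraries and did not pass in any comparison, though between the genotypes it passed with Control library 3 or Fosl2 Tg library 2 removed (0.20 to 0.24, with a limma adjusted p of 0.0108 to 0.155 over 19 settings). Dhx58, a helicase of the same family as Ifih1 and Ddx58, ranged from 0.631 to 1.06 FPKM, with all groups overlapping.

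The oligoadenylate synthetases make the second messenger that activates the antiviral RNase L. Only Oas3 (chromosome 5, 120753098 to 120777659) reached 1 FPKM, and it did so through Fosl2 Tg, so passing the limit and differing between the groups are not independent for it. It had 0.695, 0.689 and 0.452 FPKM in Control, 2.63, 2.08 and 2.17 in Fosl2 Tg, and 0.409, 0.505 and 0.630 in the libraries labelled Fosl2 Ko. All 3 Fosl2 Tg libraries were far above the rest, which overlapped with each other. The difference was 1.03 ± 0.10 from Control (limma adjusted p = 0.000880) and 1.12 ± 0.10 from the group labelled Fosl2 Ko (limma adjusted p = 0.000149). The scale understates changes at such low levels: with a pseudocount of 0.1 the difference from Control was up to 1.76. The removal of Fosl2 Tg library 1 gave 0.96. Its family members Oas1a, Oas2, Oasl1 and Oasl2 stayed between 0.0291 and 0.402 FPKM, and for Oas2, Oasl1 and Oasl2 all groups overlapped. Oas1a had 0.155, 0.0849 and 0.0432 FPKM in Control, 0.125, 0.0442 and 0.0383 in Fosl2 Tg, and 0.172, 0.168 and 0.144 in the libraries labelled Fosl2 Ko, so the last group lay above Fosl2 Tg but not above Control.

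**Figure D4:**
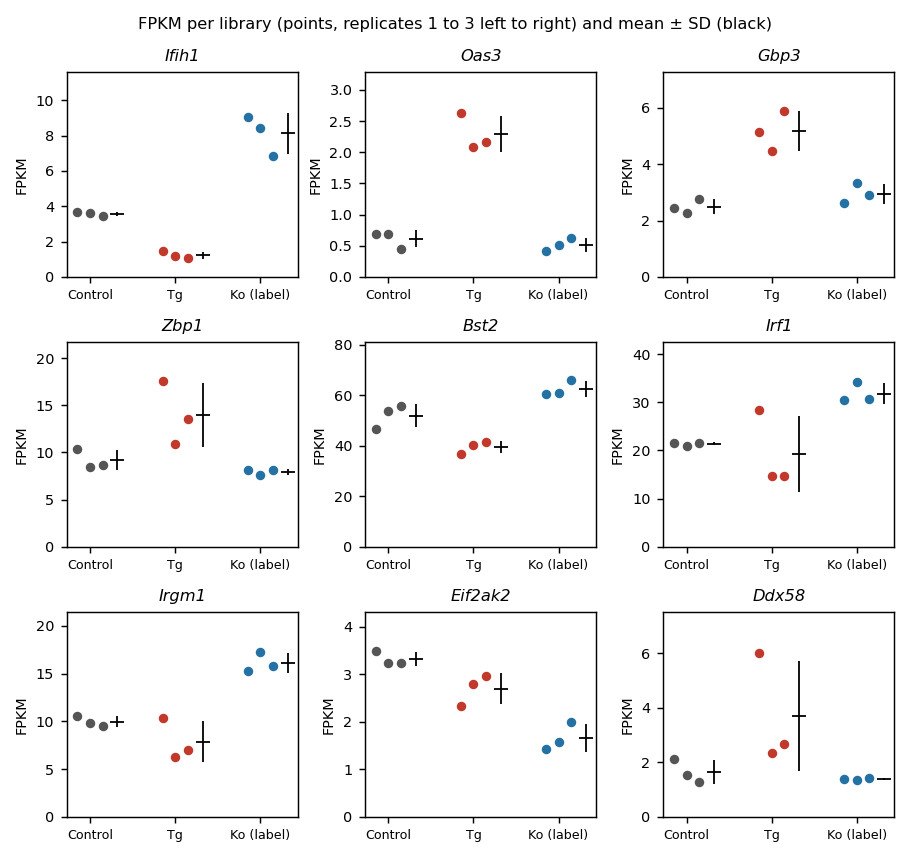
Level in FPKM (vertical axis, from 0) of 9 genes in each library, by group, with the mean and SD of 3 libraries in black. Ifih1 separates the 3 groups, Oas3 and Gbp3 separate Fosl2 Tg from both others, and Irf1, Irgm1 and Ddx58 show library 1 of Fosl2 Tg (leftmost red point) above its group.

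The IFIT proteins bind foreign RNA, and the Mx proteins are GTPases that block viral ribonucleoproteins. Ifit2, the only IFIT gene above 1 FPKM, had 7.41, 6.80 and 6.33 FPKM in Control, 8.68, 5.53 and 6.06 in Fosl2 Tg, and 7.26, 8.13 and 6.96 in the libraries labelled Fosl2 Ko, and no comparison passed. Ifit1 had 0.720, 0.396 and 0.421 FPKM in Control, 0.251, 0.177 and 0.140 in Fosl2 Tg, and 0.838, 1.11 and 0.881 in the libraries labelled Fosl2 Ko. The 3 groups of Ifit1 were separate, in the same order as for Ifih1. Usp18, which removes ISG15 from proteins and damps the type I receptor, had 1.01, 0.911 and 0.822 FPKM in Control, 0.672, 0.344 and 0.319 in Fosl2 Tg, and 1.24, 1.37 and 1.17 in the libraries labelled Fosl2 Ko. Usp18 too had 3 separate groups in that order. Mx2 had 0.263, 0.333 and 0.337 FPKM in Control, 0.159, 0.185 and 0.205 in Fosl2 Tg, and 0.197, 0.216 and 0.198 in the libraries labelled Fosl2 Ko, so both other groups lay below Control. When Fosl2 Tg library 1 was left out, the Ifit2 difference between the genotypes was -0.31 and passed (limma adjusted p = 0.0223, and from 0.0108 to 0.875 over 19 settings).

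Among the 16 genes below 1 FPKM, the groups did not overlap for 3 in Fosl2 Tg against Control (Ifit1, Usp18 and Mx2, all lower), against 18.8% of all genes above 0 and below 1 FPKM. For the libraries labelled Fosl2 Ko against Control they did not overlap for 4 (Ifit1, Usp18 and Rtp4 higher, Mx2 lower), against 15.3%. Between the genotypes they did not overlap for 4 (Irf7 higher, Oas1a, Ifit1 and Usp18 lower), against 23.7%. In a fit of all 17397 genes above 0 with a pseudocount of 0.1, a setting chosen after seeing the data, Ifit1 (-1.06 ± 0.23, limma adjusted p = 0.0254), Usp18 (-0.95 ± 0.23, limma adjusted p = 0.0350) and Mx2 (-0.54 ± 0.11, limma adjusted p = 0.0189) were lower in Fosl2 Tg than in Control, where 13.0% of all genes were called. In that fit Ifit1 and Usp18 were also lower in Fosl2 Tg than in the libraries labelled Fosl2 Ko, by -1.86 and -1.38, where 25.3% of all genes were called. In the libraries labelled Fosl2 Ko, where 3.17% of all genes were called, 0 of these 16 genes passed against Control in that limma fit (Mx2 -0.43, limma adjusted p = 0.0827), while with a pseudocount of 1 Mx2 passed as lower (-0.12, limma adjusted p = 0.0421). With a pseudocount of 1 and no limit on the level, Ifit1, Usp18 and Mx2 also passed as lower in Fosl2 Tg than in Control, with a limma adjusted p of 0.0481, 0.0285 and 0.0116. Isg15, the ubiquitin-like modifier, had 1.05, 0.683 and 0.570 FPKM in Control, 0.989, 0.262 and 0.282 in Fosl2 Tg, and 0.555, 0.841 and 1.11 in the libraries labelled Fosl2 Ko, with all groups overlapping. Mx1, Ifit3, Cmpk2, Rsad2 and Ifi44 overlapped in all 3 comparisons as well. Rsad2 was lowest, listed at 0 in library 2 labelled Fosl2 Ko and at no more than 0.0791 FPKM elsewhere. For a transcript of 2 kb, 3 fragments correspond to 0.0261 to 0.0469 FPKM at these depths, and the levels of Rsad2 and Ifi44 were near or below that range in most libraries.

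Bst2, Samhd1 and Eif2ak2 were the antiviral effectors that changed. Bst2 (chromosome 8, 71534262 to 71537437) encodes tetherin, which holds budding virus at the cell surface. It had 46.7, 53.7 and 55.7 FPKM in Control, 36.7, 40.4 and 41.4 in Fosl2 Tg, and 60.4, 61.0 and 66.2 in the libraries labelled Fosl2 Ko. The 3 groups did not overlap. Bst2 fell by 0.39 ± 0.08 on the log2 scale in Fosl2 Tg against Control (limma adjusted p = 0.0120) and differed by -0.65 ± 0.08 from the group labelled Fosl2 Ko (limma adjusted p = 0.000625). Those labelled Fosl2 Ko did not pass against Control (0.26 ± 0.08, limma adjusted p = 0.112). The call against Control did not survive the removal of Control library 2 (-0.36, limma adjusted p = 0.0535, and from 0.00156 to 0.0535 over 19 settings), and without Fosl2 Tg library 1 the value was -0.34. Bst2 also marks plasmacytoid dendritic cells: of 6 markers of that cell type, Bst2 and Pacsin1 were above 1 FPKM and Klk1 was listed at 0 in every library. The summed level of the 6 was 68.5 to 75.4 FPKM in Control, 54.4 to 56.2 in Fosl2 Tg and 82.1 to 87.2 where the label was Fosl2 Ko, most of it Bst2 itself, and Pacsin1 was lower in Fosl2 Tg than in Control (log2 difference -0.36, limma adjusted p = 0.0459). Their part in the result was not tested.

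Samhd1 (chromosome 2, 157097529 to 157135222) had 84.2, 69.1 and 64.7 FPKM in Control, 87.0, 79.7 and 74.9 in Fosl2 Tg, and 57.8, 59.4 and 57.8 in the libraries labelled Fosl2 Ko. The last group lay below all others, while Control and Fosl2 Tg overlapped. Samhd1 was higher in Fosl2 Tg than in the libraries labelled Fosl2 Ko by 0.46 ± 0.10 on the log2 scale (limma adjusted p = 0.00863), with 0.40 when Fosl2 Tg library 1 was left out. Against Control it passed only with Control library 1 removed (0.26, limma adjusted p = 0.0365, and from 0.0365 to 0.588 over 19 settings). Eif2ak2 (chromosome 17, 78852550 to 78882572), known as PKR, had 3.49, 3.24 and 3.24 FPKM in Control, 2.33, 2.79 and 2.97 in Fosl2 Tg, and 1.43, 1.57 and 2.00 in the libraries labelled Fosl2 Ko. Its 3 groups were separate with Control on top, an order that differs from that of Ifih1. The libraries labelled Fosl2 Ko lay below Control by -0.70 ± 0.10 (limma adjusted p = 0.00597), and Fosl2 Tg lay above them by 0.47 ± 0.10 (limma adjusted p = 0.00762) without passing against Control (-0.23 ± 0.10, limma adjusted p = 0.108). Both Eif2ak2 calls held under every alternative tried. The exonuclease gene Isg20 (4.48 to 5.53 FPKM) and Parp14 (4.96 to 8.10 FPKM), which attaches ADP-ribose to proteins, overlapped in all comparisons.

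The GBP and IRG families are interferon-induced GTPases that act on vacuoles holding microbes. Gbp3 (chromosome 3, 142560052 to 142573212) had 2.44, 2.25 and 2.77 FPKM in Control, 5.16, 4.46 and 5.88 in Fosl2 Tg, and 2.62, 3.34 and 2.89 in the libraries labelled Fosl2 Ko. All Fosl2 Tg libraries were above all others. Gbp3 was higher than Control by 0.82 ± 0.10 (limma adjusted p = 0.00209) and than the libraries labelled Fosl2 Ko by 0.64 ± 0.10 on the log2 scale (limma adjusted p = 0.00288), with 0.82 and 0.64 also without Fosl2 Tg library 1. Its neighbours on chromosome 3 differed from Control in the same direction in Fosl2 Tg. The difference was 0.30 ± 0.14 for Gbp2 (limma adjusted p = 0.141) and 0.45 ± 0.18 for Gbp7 (limma adjusted p = 0.0981). Against the libraries labelled Fosl2 Ko it was 0.22 ± 0.14 for Gbp2 and -0.11 ± 0.18 for Gbp7. Gbp2 had 37.5, 32.5 and 37.3 FPKM in Control, 36.3, 45.0 and 53.1 in Fosl2 Tg, and 34.1, 44.1 and 36.3 in the libraries labelled Fosl2 Ko. Gbp7 had 2.03, 1.42 and 1.33 FPKM in Control, 3.71, 1.97 and 2.13 in Fosl2 Tg, and 2.66, 3.24 and 2.56 in the libraries labelled Fosl2 Ko, and neither gene passed in any comparison. When Fosl2 Tg library 1 was left out, Gbp2 passed as higher in Fosl2 Tg than in Control (0.44, limma adjusted p = 0.0425, and from 0.00633 to 0.336 over 19 settings), and Gbp7 as higher in the group labelled Fosl2 Ko (0.56, limma adjusted p = 0.0204, and from 0.00307 to 0.377 over 18 settings). These genes are close relatives, and how the authors' counting divided shared fragments is not stated in the sources used here.

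The IRG genes went the other way from Gbp3. Irgm1 (chromosome 11, 48865249 to 48871346), which regulates other IRG proteins and autophagy, had 10.6, 9.82 and 9.46 FPKM in Control, 10.3, 6.26 and 6.98 in Fosl2 Tg, and 15.3, 17.3 and 15.8 in the libraries labelled Fosl2 Ko. The libraries labelled Fosl2 Ko were above all others, and Fosl2 Tg library 1 was within the Control range while libraries 2 and 3 were below it. Irgm1 was higher in the libraries labelled Fosl2 Ko than in Control by 0.64 ± 0.15 (limma adjusted p = 0.0470). It was lower in Fosl2 Tg than in those libraries by -0.98 ± 0.15 (limma adjusted p = 0.00188) and did not pass against Control (-0.34 ± 0.15, limma adjusted p = 0.114). The call against Control in the libraries labelled Fosl2 Ko was lost when any library other than Fosl2 Tg library 1 or 2 was left out (0.60 to 0.69), and over 19 settings its limma adjusted p ran from 0.000291 to 0.174. Without Fosl2 Tg library 1, Fosl2 Tg passed as lower than Control (-0.53, limma adjusted p = 0.00386, and from 0.000996 to 0.265 over 19 settings).

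Igtp (chromosome 11, 58199556 to 58207592), also called Irgm3, had 52.0, 44.7 and 49.3 FPKM in Control, 46.0, 32.5 and 36.8 in Fosl2 Tg, and 56.2, 65.1 and 58.0 in the libraries labelled Fosl2 Ko. The libraries labelled Fosl2 Ko lay above all others, and only Fosl2 Tg library 1 reached into the Control range. Igtp was lower in Fosl2 Tg than in the libraries labelled Fosl2 Ko by -0.64 ± 0.12 on the log2 scale (limma adjusted p = 0.00604), and neither passed against Control (-0.34 ± 0.12 for Fosl2 Tg, limma adjusted p = 0.0704). When Fosl2 Tg library 1 was left out, the latter was -0.48 and passed (limma adjusted p = 0.0117, and from 0.00570 to 0.166 over 19 settings). The remaining induced genes did not pass: Ifi35 ranged from 20.0 to 23.0 FPKM over the 9 libraries, Trim30a, which restrains inflammatory signalling, from 8.63 to 12.8, and Xaf1, an apoptosis regulator, from 0.850 to 1.48. Rtp4, a chaperone of receptors, had 0.248, 0.149 and 0.106 FPKM in Control, 0.375, 0.0677 and 0.0939 in Fosl2 Tg, and 0.316, 0.411 and 0.282 in the libraries labelled Fosl2 Ko. The last group of Rtp4 lay above Control, and Fosl2 Tg spread around both.

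**Figure D5:**
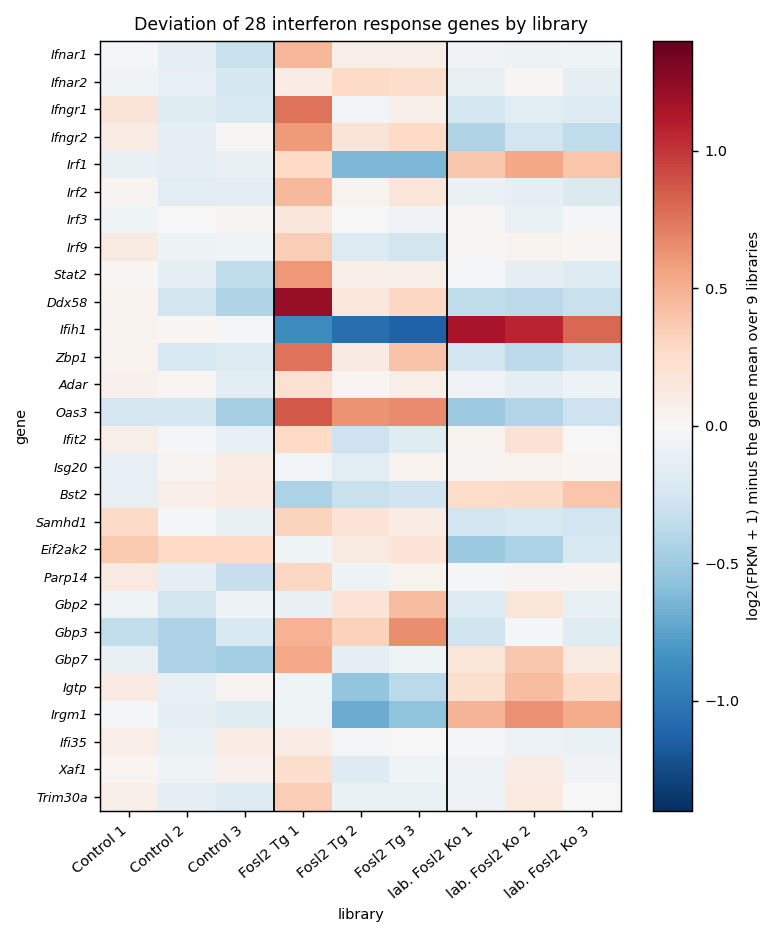
Deviation of log2(FPKM + 1) from each gene's mean over the 9 libraries (colour) for the 28 tested genes (rows) and the 9 libraries (columns, black lines between groups). The column of Fosl2 Tg library 1 is red for most genes, while Ifih1, Irf1, Igtp and Irgm1 are red in the libraries labelled Fosl2 Ko.

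The promoters of genes that differed are shown because ISRE, GAS and AP-1 sites are the known targets of the interferon pathway and of Fosl2. RefSeq windows of 300 bases (250 before the annotated start and 50 after it, build GRCm38.p6) were matched by symbol for 36 of the 44 genes. On both strands, ISRE was searched as GAAA, any 2 bases and GAAA again, GAS as TTCNNNGAA and AP-1 as TGANTCA, and matches of ISRE and GAS may overlap. An ISRE match was in the windows of 18 of the 36 genes, against 3.77% of tested genes. A GAS match was in 14 (38.9%), against 8.27%, and an AP-1 match in 8 (22.2%), against 5.35%. Of the 15 genes called in at least 1 comparison 14 had a window, of which 9 held an ISRE, 8 a GAS and 2 (Oas3 and Irgm1) an AP-1 match. Of the 13 tested genes called in none 12 had a window, of which 4 held an ISRE, 5 a GAS and 4 an AP-1 match. A match is a description and not a site of binding. The windows below were picked among called genes because they hold an ISRE match, and are written 5′ to 3′ on the strand of the gene with ISRE matches in capitals. Of the 14 windows of called genes 9 hold one, and that of Ifngr2, for example, holds none of the 3 motifs.
Oas3 (chr5:120777610-120777909, minus strand): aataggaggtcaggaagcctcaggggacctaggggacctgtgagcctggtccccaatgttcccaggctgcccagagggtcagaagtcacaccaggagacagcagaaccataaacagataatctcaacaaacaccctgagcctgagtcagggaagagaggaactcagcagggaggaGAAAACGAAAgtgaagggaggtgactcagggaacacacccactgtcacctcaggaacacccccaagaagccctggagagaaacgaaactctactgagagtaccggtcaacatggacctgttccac
Gbp3 (chr3:142559794-142560093, plus strand): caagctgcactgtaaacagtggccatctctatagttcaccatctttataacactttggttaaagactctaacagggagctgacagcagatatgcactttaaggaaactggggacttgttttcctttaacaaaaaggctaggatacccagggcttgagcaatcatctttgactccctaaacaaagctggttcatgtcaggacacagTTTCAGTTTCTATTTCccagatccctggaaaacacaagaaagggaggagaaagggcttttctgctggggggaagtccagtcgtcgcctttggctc
Ifih1 (chr2:62646206-62646505, minus strand): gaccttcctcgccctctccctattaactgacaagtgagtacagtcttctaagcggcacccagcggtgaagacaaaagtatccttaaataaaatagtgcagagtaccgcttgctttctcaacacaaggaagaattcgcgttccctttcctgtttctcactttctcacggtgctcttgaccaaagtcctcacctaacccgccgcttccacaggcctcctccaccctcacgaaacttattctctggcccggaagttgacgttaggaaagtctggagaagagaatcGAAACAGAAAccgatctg
Irgm1 (chr11:48871371-48871670, minus strand): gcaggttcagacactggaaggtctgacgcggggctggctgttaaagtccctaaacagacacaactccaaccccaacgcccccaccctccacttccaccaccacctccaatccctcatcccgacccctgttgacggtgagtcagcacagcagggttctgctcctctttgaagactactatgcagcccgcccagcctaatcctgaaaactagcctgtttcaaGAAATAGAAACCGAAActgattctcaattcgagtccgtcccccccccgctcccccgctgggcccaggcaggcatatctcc
Bst2 (chr8:71537423-71537722, minus strand): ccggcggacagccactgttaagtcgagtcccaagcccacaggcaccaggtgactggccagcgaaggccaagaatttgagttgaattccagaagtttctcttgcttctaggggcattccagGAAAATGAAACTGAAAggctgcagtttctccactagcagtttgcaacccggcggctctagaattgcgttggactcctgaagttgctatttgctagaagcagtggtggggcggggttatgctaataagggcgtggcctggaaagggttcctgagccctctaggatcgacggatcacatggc
Eif2ak2 (chr17:78882523-78882822, minus strand): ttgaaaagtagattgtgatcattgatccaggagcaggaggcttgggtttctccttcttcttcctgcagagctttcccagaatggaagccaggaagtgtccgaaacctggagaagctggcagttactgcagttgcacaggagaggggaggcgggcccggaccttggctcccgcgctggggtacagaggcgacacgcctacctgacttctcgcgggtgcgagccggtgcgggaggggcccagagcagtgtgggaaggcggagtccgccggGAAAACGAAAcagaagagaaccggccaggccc

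The ISRE match began 75 bases before the start in Oas3, 45 and 39 before it in Gbp3, 30 and 24 before it in Irgm1, and 130 and 124 before it in Bst2, where the paired matches overlap. It lay after the start in Ifih1 and Eif2ak2. AP-1 matches began 109 and 54 bases before the start of Oas3 and 115 before that of Irgm1. An ISRE match was thus in the window of Oas3 and Gbp3, which were higher in Fosl2 Tg, and in that of Ifih1 and Bst2, which were lower.

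The authors' deposited table of group comparisons holds 23 of the 44 genes, 4 of them below 1 FPKM on average. In the authors' deposited table, 18 of the 23 are marked significant for Fosl2 Tg against Control, 10 for the libraries labelled Fosl2 Ko against Control and 19 between the genotypes. That table lists genes significant somewhere, so its share is not a background. Its log2 fold changes are of FPKM without a pseudocount, so they are not on the log2(FPKM + 1) scale used above. Its FPKM per group also differ from the means of libraries, which were 3.69 in Fosl2 Tg and 1.63 in Control for Ddx58. For Ddx58 the authors' deposited table gives 4.40 against 1.90 FPKM in Fosl2 Tg and Control (log2 fold change 1.21, q-value 0.000503), where the limma test above did not pass. For Irf1 the authors' deposited table gives 37.0 against 24.9 FPKM in the libraries labelled Fosl2 Ko and Control (log2 fold change 0.57, q-value 0.000503), also not called by limma. For Irf7 the authors' deposited table gives 1.63 against 0.817 FPKM in Fosl2 Tg and Control (log2 fold change 1.00, q-value 0.000503). The authors' deposited table also marks Gbp2 (log2 fold change 0.36, q-value 0.00779) and Gbp7 (0.74, q-value 0.000503) as higher in Fosl2 Tg than in Control. Neither was called by limma in that comparison. Ifnar2 went the other way between the genotypes: limma called it (adjusted p = 0.0209), and the authors' deposited table does not mark it significant (q-value 0.112).

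Genes of the interferon pathway outside the set were read from a list of 133, of which 128 were found and 101 tested. In Fosl2 Tg against Control 14 were higher and 16 lower, against 8.53% and 15.1% of all tested genes, with a median difference of 0.02. In the libraries labelled Fosl2 Ko against Control 5 were higher and 2 lower, against 2.14% and 2.32%, with a median of -0.02. Between the genotypes 25 were higher and 30 lower in Fosl2 Tg, against 17.4% and 20.7%, with a median of -0.02. Of 9 interferon genes, 7 (the type I genes Ifna1, Ifna2, Ifna4, Ifnb1 and Ifne, and Ifnl2 and Ifnl3 of the lambda type) were listed at 0 in all 9 libraries. Ifng, the gene of interferon gamma, had 0.0988, 0.242 and 0.179 FPKM in Control, 0.0231, 0.0367 and 0 in Fosl2 Tg, and 0.627, 0.429 and 0.414 in the libraries labelled Fosl2 Ko. The 3 groups of Ifng did not overlap, at levels below the limit of 1 FPKM for the main fit. Of all genes above 0 and below 1 FPKM, 15.3% to 23.7% did not overlap in a single comparison.

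Among the genes of signalling below the receptors and sensors, Tyk2, the kinase bound to Ifnar1, was higher in Fosl2 Tg than in Control (19.8 against 15.5 FPKM, log2 difference 0.34 ± 0.06, limma adjusted p = 0.00859). Myd88, an adaptor of Toll-like receptors, was lower in Fosl2 Tg (33.8 against 40.8 FPKM, log2 difference -0.27 ± 0.04, limma adjusted p = 0.00562). Without Fosl2 Tg library 1 the differences were 0.32 for Tyk2 and -0.24 for Myd88.

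Of the other IRF genes, Irf8 and Irf4 differed in opposite directions. Irf8, best known from myeloid and B cells, had 21.1, 24.5 and 22.2 FPKM in Control, 11.4, 15.8 and 13.5 in Fosl2 Tg, and 40.2, 46.2 and 46.9 in the libraries labelled Fosl2 Ko. The 3 groups were separate. It was lower in Fosl2 Tg by -0.71 ± 0.11 (limma adjusted p = 0.00550) and rose by 0.94 ± 0.11 where the label was Fosl2 Ko (limma adjusted p = 0.00365). Irf4, induced by T cell receptor signalling, had 156, 179 and 162 FPKM in Control, 198, 256 and 269 in Fosl2 Tg, and 123, 118 and 131 in the libraries labelled Fosl2 Ko. Those groups were separate too, in the reverse order. It was higher in Fosl2 Tg than in Control by 0.52 ± 0.11 (limma adjusted p = 0.0165), a call lost without Control library 3 (0.51, limma adjusted p = 0.0564, and from 0.000514 to 0.0621 over 19 settings), and higher than in the libraries labelled Fosl2 Ko by 0.94 ± 0.11 on the log2 scale (limma adjusted p = 0.000693). Without Fosl2 Tg library 1 the differences from Control were -0.59 for Irf8 and 0.66 for Irf4.

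Of 11 other GBP and IRG genes tested, 0 were called by limma in Fosl2 Tg against Control (0 higher and 4 lower at an unadjusted p under 0.05), where 23.6% of all tested genes were called. In the libraries labelled Fosl2 Ko 2 were higher than in Control, against 2.14% of all tested genes, and 6 were lower in Fosl2 Tg than in those libraries, against 20.7%. Gbp6 had 2.67, 2.43 and 2.02 FPKM in Control, 2.28, 1.30 and 1.33 in Fosl2 Tg, and 4.63, 5.32 and 4.36 in the libraries labelled Fosl2 Ko. Gbp10 had 2.35, 1.93 and 1.63 FPKM in Control, 1.76, 1.15 and 1.22 in Fosl2 Tg, and 3.88, 4.94 and 4.0 in the libraries labelled Fosl2 Ko. For both genes the libraries labelled Fosl2 Ko lay above all others. Gbp6 was higher there than in Control by 0.78 ± 0.15 (limma adjusted p = 0.0228) and Gbp10 by 0.83 ± 0.13 (limma adjusted p = 0.0110). The Gbp6 call was lost without Control library 2 or 3 or any library labelled Fosl2 Ko (0.70 to 0.83), and the Gbp10 call without Control library 2 or library 2 labelled Fosl2 Ko (0.74 to 0.82). The limma adjusted p ran from 0.000376 to 0.101 for Gbp6 and from 0.000301 to 0.0550 for Gbp10 over 18 settings. The near-identical Tgtp1 and Tgtp2, whose fragments cannot be told apart with certainty, were lower in Fosl2 Tg than in the libraries labelled Fosl2 Ko by -1.98 ± 0.33 on the log2 scale (limma adjusted p = 0.00340) and -1.80 ± 0.33 (limma adjusted p = 0.00505). Without Fosl2 Tg library 1 these differences were -2.44 and -2.26.

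Of 61 other interferon-induced genes tested, 9 were higher and 8 lower in Fosl2 Tg than in Control, against 8.53% and 15.1% of all tested genes. The membrane proteins Ifitm2 and Ifitm3, which block fusion of viruses with endosomes, had the largest decreases among the named genes. Ifitm2 had 76.0, 80.6 and 90.7 FPKM in Control, 14.3, 26.9 and 17.7 in Fosl2 Tg, and 120, 109 and 91.1 in the libraries labelled Fosl2 Ko. Ifitm3 had 4.53, 5.89 and 5.52 FPKM in Control, 0.963, 1.90 and 0.833 in Fosl2 Tg, and 9.10, 8.75 and 6.86 in the libraries labelled Fosl2 Ko. Every Fosl2 Tg library was far below all others. Ifitm2 fell by 2.06 ± 0.20 (limma adjusted p = 0.000880) and Ifitm3 by 1.53 ± 0.18 (limma adjusted p = 0.00159) on the log2 scale in Fosl2 Tg against Control. Without Fosl2 Tg library 1 the differences were -1.87 and -1.45. Ly6e, a surface protein, was higher in Fosl2 Tg than in Control (160 against 102 FPKM, log2 difference 0.64 ± 0.10, limma adjusted p = 0.00521), and Mlkl, the executor of necroptosis, rose from 0.696 to 1.96 FPKM (log2 difference 0.80 ± 0.13, limma adjusted p = 0.00587). With Fosl2 Tg library 1 left out these differences were 0.57 for Ly6e and 0.84 for Mlkl. Mlkl, like Oas3, reached 1 FPKM only through Fosl2 Tg. In the libraries labelled Fosl2 Ko limma called 0 of the 61 higher than in Control (5 at an unadjusted p under 0.05) and 2, Lgals9 and Ly6e, lower, against 2.14% and 2.32% of all tested genes. Lgals9 was at 27.7 against 33.7 FPKM (log2 difference -0.28 ± 0.04, limma adjusted p = 0.00506). Ly6e was at 70.5 against 102 FPKM (-0.53 ± 0.10, limma adjusted p = 0.0256), a call that the removal of any Control library or any library labelled Fosl2 Ko ended (-0.57 to -0.46), with a limma adjusted p of 0.00452 to 0.104 over 19 settings.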

How the data were processed

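RNA sequencing libraries were made from polyadenylated RNA with a directional protocol, per the labels' protocols. The submitters' processing notes name TopHat, Cufflinks and Cuffdiff and the mouse build mm10. For tool versions, strand setting and annotation, each is not given in the sources used here. Per the file headers, the values the authors deposited are FPKM of each gene in each library. A second table that the authors deposited holds their group comparisons as FPKM, log2 fold change, p-value and q-value, and it was used for comparison only.

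The FPKM of 23849 entries were used as deposited, with 0 library columns unmatched and 1 row without content not analysed here. Start positions count from 0 in the files and are printed from 1. FPKM are not counts, so log2(FPKM + 1) of 10340 genes with a mean of at least 1 FPKM was fitted in limma 3.58.1 (R 4.3.3). All 9 libraries entered 1 fit with a trend of variance on mean, no covariate and 6 residual degrees of freedom. Adjusted p-values are Benjamini-Hochberg values over all genes tested, with a threshold of 0.05. The fit was tested on simulated data. Depth, 32.0 to 57.5 M fragments, was estimated from the steps of the lowest FPKM values and sets how few fragments a low FPKM rests on.

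The 44 genes and the lists of other pathway genes and markers were chosen with earlier results of these data known. Values in every library are printed for genes called in at least 1 comparison, receptor chains, Stat2 and IRF genes. Other genes are given by ranges, and up to 10 of them with values, picked after their values were seen. From each other list up to 4 called genes per comparison are named. Alternatives were other pseudocounts, limits on low values, scalings, array weights, only the groups compared, the replicate number as a block, and each library left out in turn. Promoter windows came from RefSeq.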

Additional observations from a re-analysis of the deposited data

How the results depend on the processing

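Of the values of single interferon response genes called in a comparison, 182 of 225 stayed called with each library left out in turn and 223 of 240 under the other alternatives. None of them changed sign (0 of 225 and 0 of 240), and the cause of the lost calls was not tested. In Fosl2 Tg against Control they were 6 higher and 2 lower, with 23.6% of all tested genes called. With no limit on low values, where all 44 genes were tested, they were 3 and 5 with a pseudocount of 1 (12.3% of all genes called). A pseudocount of 0.1, chosen after seeing the data, also gave 3 and 5 (13.0%). They were 4 higher and 1 lower with a limit of 5 FPKM, where 20 genes were tested (23.2%). They were 11 and 5 with limma array weights (43.0%), and 2 and 2 with only both compared groups in the fit (8.33%). With libraries left out they ran from 2 to 8 higher and from 1 to 5 lower (8.5% to 24.5%). In the libraries labelled Fosl2 Ko against Control they were 2 higher and 1 lower, with 4.46% of all tested genes called. With no limit on low values they were 1 and 2 (3.4%), and 1 and 1 when a pseudocount of 0.1 was also used (3.17%). With a limit of 5 FPKM, under which Ifih1 and Eif2ak2 were not tested, limma called 0 and 0 (4 and 2 at an unadjusted p under 0.05), against 3.61%. They were 1 and 1 with median-of-ratios scaling (4.48%), 6 and 3 with array weights (27.4%), and 4 and 2 with only the compared groups (8.59%). With libraries left out they ran from 1 to 4 higher and from 1 to 2 lower (1.7% to 11.9%). Between the genotypes (9 higher, 5 lower, 38.1% of all tested genes) 13 were higher and 8 lower with array weights (54.7%). Left-out libraries gave 6 to 10 higher and 4 to 7 lower there (21.0% to 39.7%).

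For the other pathway genes, Fosl2 Tg against Control gave 20 higher and 31 lower with array weights. With only the compared groups it gave 5 higher and 8 lower, and left-out libraries gave 7 to 16 higher and 8 to 25 lower. The libraries labelled Fosl2 Ko against Control gave 3 higher and 2 lower with a limit of 5 FPKM. With quantile normalization they gave 5 higher and 1 lower. They gave 27 higher and 22 lower with array weights, and 17 higher and 9 lower with only the compared groups. Left-out libraries gave 1 to 16 higher and 1 to 12 lower there, and 16 to 26 higher and 17 to 37 lower between the genotypes. Over all tested genes, array weights called 27.4% in the libraries labelled Fosl2 Ko against Control, where the unweighted fit called 4.46%. In Fosl2 Tg against Control they called 43.0%, where the unweighted fit called 23.6%. Fits of only the compared groups called 8.33% for Fosl2 Tg and 8.59% for the libraries labelled Fosl2 Ko against Control. For the latter, a limit of 5 FPKM called 3.61% and quantile normalization 4.6%. Median-of-ratios scaling split the calls of Fosl2 Tg against Control into 1100 higher and 1265 lower, where the unscaled fit had 882 and 1558.

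The Fosl2 difference between the genotypes, which did not pass (0.42, limma adjusted p = 0.0594), passed in 3 of 19 alternatives, at 0.29 with array weights (limma adjusted p = 0.0281), at 0.42 with the replicate block (limma adjusted p = 0.0324) and at 0.58 without Fosl2 Tg library 2 (limma adjusted p = 0.0129). Its adjusted p ran from 0.0129 to 0.156 over the 19, and its value from 0.26 to 0.58 with libraries left out. Left-out libraries gave 1.49 to 1.82 for Fosl2 Tg and 1.14 to 1.29 for the libraries labelled Fosl2 Ko against Control. Deviations of libraries with the same replicate number correlated from -0.126 to 0.0985, so the numbers were not taken as pairs. With the replicate number as a block, 9 genes were higher and 2 lower in Fosl2 Tg against Control, 2 and 1 in the libraries labelled Fosl2 Ko, and 12 and 5 between the genotypes. Of all tested genes 31.5%, 4.75% and 44.4% were called in these comparisons. Groups of 3 libraries are too small for a test of outlying values. Low FPKM rest on few fragments, which limits the 16 genes below 1 FPKM.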
